A study of Danio rerio with 4 samples.

Results

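The genes described here belong to 14 families of transcription factors that pattern the embryo (Sox, Fox, Pax, Pou, Lhx, Nkx, Tbx, Gata, Dlx, Irx, sine oculis (six2b and its relatives), HoxA, HoxB and HoxD), with 9 of their members, mostly pancreatic ones, set aside. They were chosen by gene name, case ignored. The name had to begin with a family prefix followed by a letter or digit, and sox9a, sox9b, sox11a, foxa2, foxr1, pou5f1, lhx8a, nkx6.1 and nkx2.2a were left out. The rule found 38 genes among the 3020 distinct genes listed by the authors. Of the 38, 29 were in the table of replicate 1 alone, 4 in that of replicate 2 alone and 5 in both.

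The study sorted centroacinar cells (CAC) and the remaining, non-centroacinar cells (non-CAC) by fluorescence from the dissociated pancreas of adult AB zebrafish and sequenced their RNA. Centroacinar cells sit at the ends of the ducts, inside the acini that make digestive enzymes. Each group had 1 library in each of 2 replicates, and the labels name no reporter or stain for the sort. Separate fish for the replicates are not mentioned either, so differences between replicates may be technical. For each replicate the authors deposited a table of genes called different between its CAC and non-CAC library, with a ratio and no value per library. Which population forms the numerator is not in the headers, so genes are described by their side, above or below a ratio of 1. A gene that is not listed may have been alike, too low or not called.

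Factors of these families bind DNA through a shared fold in each family (the forkhead domain of Fox proteins, the homeodomain of Hox, Pou, Lhx, Nkx, Dlx, Irx and sine oculis proteins) and set regional identity during development. Hox genes lie in clusters and mark position along the body axis. Many Fox, sine oculis, Dlx, Pou and Lhx genes are best known from the brain, eye, kidney or neural crest. A few members of the same families are best known for other roles. Among them are tbx21 and foxp3b, whose mammalian counterparts direct T lymphocytes, foxm1, which drives genes of cell division, and foxj1b, of motile cilia. The 38 genes are therefore a set by family name and not by 1 function.

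Nearly all of the 38 lay above 1 where they were listed. Of the 34 in replicate 1, 32 lay above 1 (94.1%) and 2 below, while 66.6% of all 1812 genes of that table lay above 1. In replicate 2, 7 of 9 lay above 1 (77.8%) and 2 below, beside 42.9% of all 1560 listed genes. The 2 below 1 were foxp4 and nkx1.2lb in replicate 1, and foxp4 and pax3a in replicate 2, beside 33.4% and 57.1% of all listed genes. The choice of genes bears on these counts, because 8 of the 9 genes left out were listed in replicate 2 and all 8 lay below 1. With the left-out genes put back, 33 of 39 family genes lay above 1 in replicate 1 (84.6%) and 7 of 17 in replicate 2 (41.2%), so in replicate 2 the share over the whole families was close to that of all listed genes.

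Each table also held markers of other cells, by which the sides can be described. Of the ductal and centroacinar list, all 16 listed genes lay below 1 in replicate 1 and 16 of 17 in replicate 2, the exception being KRT18. All 17 listed acinar genes lay above 1 in replicate 2, and none was listed in replicate 1. The 32 members above 1 in replicate 1 thus lay opposite to ductal genes such as cftr. The 7 above 1 in replicate 2 did so too, and lay on the side of the acinar enzymes there. These lists were drawn up with earlier results of these data known, and the part of acinar or other cells in the ratios of the 38 genes was not tested. In bulk libraries like these, fewer cells of a type and less RNA per cell cannot be told apart.

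**Figure D1:**
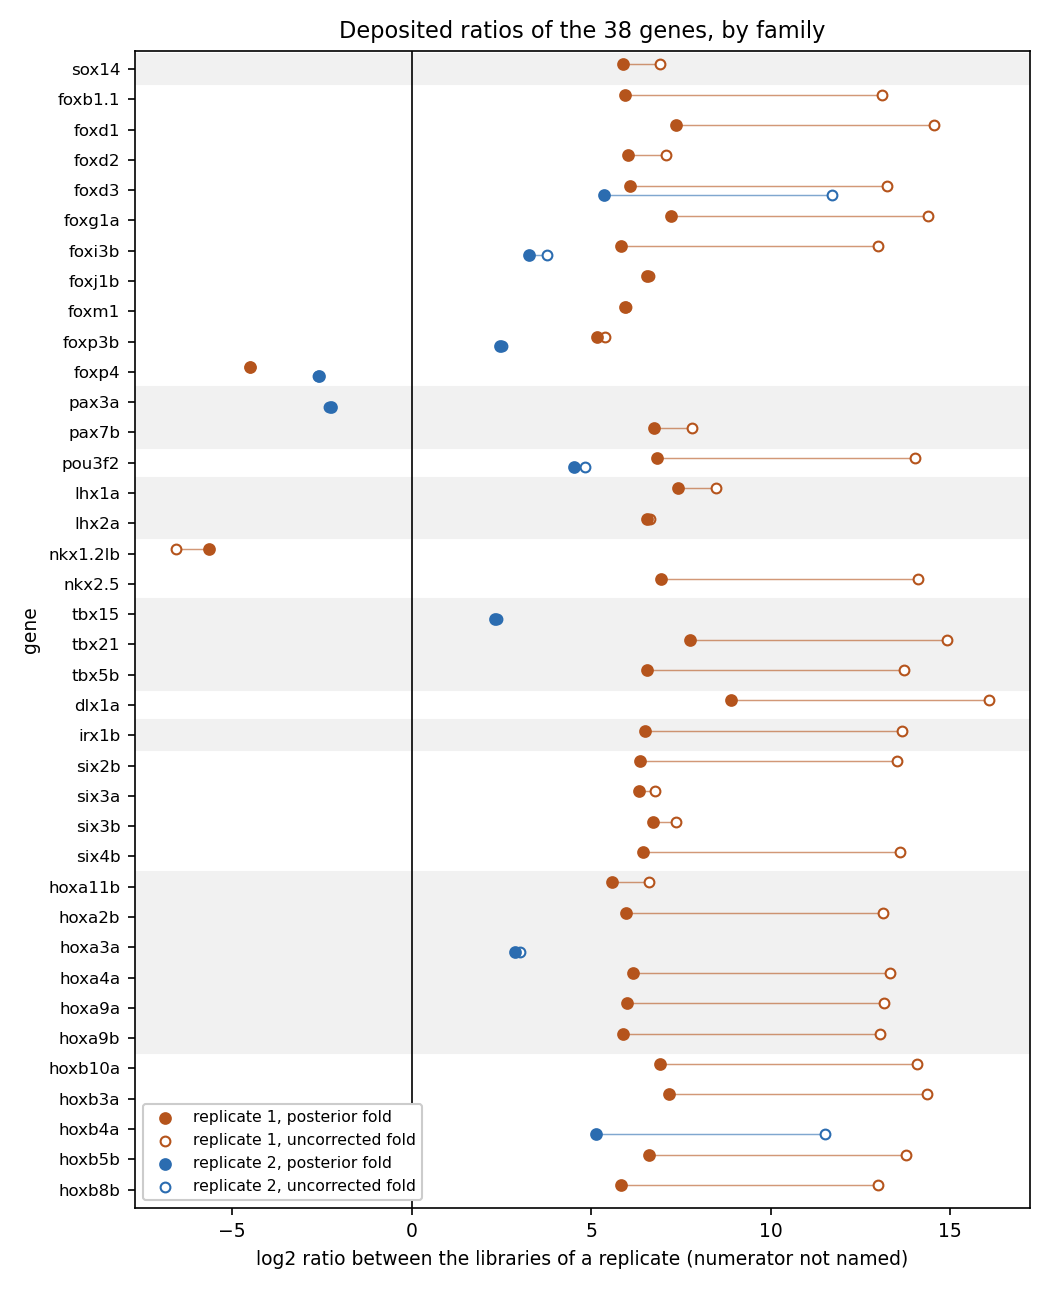
Log2 ratio of each of the 38 genes (rows, grouped by family) in replicate 1 (orange) and replicate 2 (blue), with the posterior fold as a filled point, the uncorrected fold as an open point and a line joining them. The points of foxp4, nkx1.2lb and pax3a are left of 0 and all others are right of it, and long lines mark genes whose ratio depends on which fold is read.

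The 5 genes in both tables each kept their side, 4 above 1 and foxp4 below. Over all genes, 352 of 3020 were in both tables (11.7%), and of these 32.7% lay above 1 in both and 61.4% below 1 in both. In all, 331 of the 352 kept their side (94%), so 5 of 5 is near the share over all shared genes. The winged-helix gene foxd3, a specifier of the neural crest (Zv9 chromosome 6, 31784201 to 31786000), had a ratio of 67.7 in replicate 1 and 40.9 in replicate 2 in the authors' deposited tables. On the log2 scale these are 6.08 and 5.35, the closest pair of values among the 5. In both tables its uncorrected fold differs from these values by over 10 times, so their size depends on the column read. By size it ranked 861 of the 1206 genes above 1 in replicate 1, and 24 of the 670 in replicate 2. The neural Pou-homeodomain gene pou3f2 (chromosome 16, 34874321 to 34877556) had ratios of 115 and 23.2 in the authors' deposited tables, or 6.84 and 4.54 on the log2 scale. For pou3f2 the uncorrected log2 fold deposited by the authors was 14.01 in replicate 1 and 4.82 in replicate 2. The size of 115 thus changes greatly with the fold column, and that of 23.2 far less. This gene ranked 470 and 56 on its side, so both genes stood nearer to the top of the list in replicate 2.

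The other pair above 1 lay nearer to 1. For foxi3b, a forkhead gene of zebrafish skin ionocytes (chromosome 14, 35644822 to 35646509), the authors' deposited tables gave 57.2 and 9.64, or 5.84 and 3.27 on the log2 scale. Its uncorrected log2 ratio in replicate 1 was 12.99 in the authors' deposited table, so the size of 57.2 depends on the column read. For foxp3b (chromosome 8, 24289353 to 24306939) the authors' deposited tables gave 35.8 and 5.47, or 5.16 and 2.45 on the log2 scale. In replicate 1 foxp3b ranked 1202 of 1206, near the smallest listed ratio above 1, which was 35.3, and its posterior probability of equal expression was 0.00992. Its call in that replicate was thus among the last that the table holds.

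The gene foxp4 (chromosome 11, 22743952 to 22927597) was the only 1 of the 38 below 1 in both. Its counterpart in mice is known from the developing lung and gut. The authors' deposited tables gave it ratios of 0.0442 and 0.166, or -4.50 and -2.59 on the log2 scale. The nearest listed ratio below 1 was 0.0571 in replicate 1 and 0.325 in replicate 2. Among all genes below 1 in both tables it ranked 176 of 216 by mean log2 ratio, and its fold columns differed by under 0.01 on the log2 scale. On this side of both tables it stood with the left-out endodermal gene foxa2, at -6.34 and -3.62 in the authors' deposited tables.

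**Figure D2:**
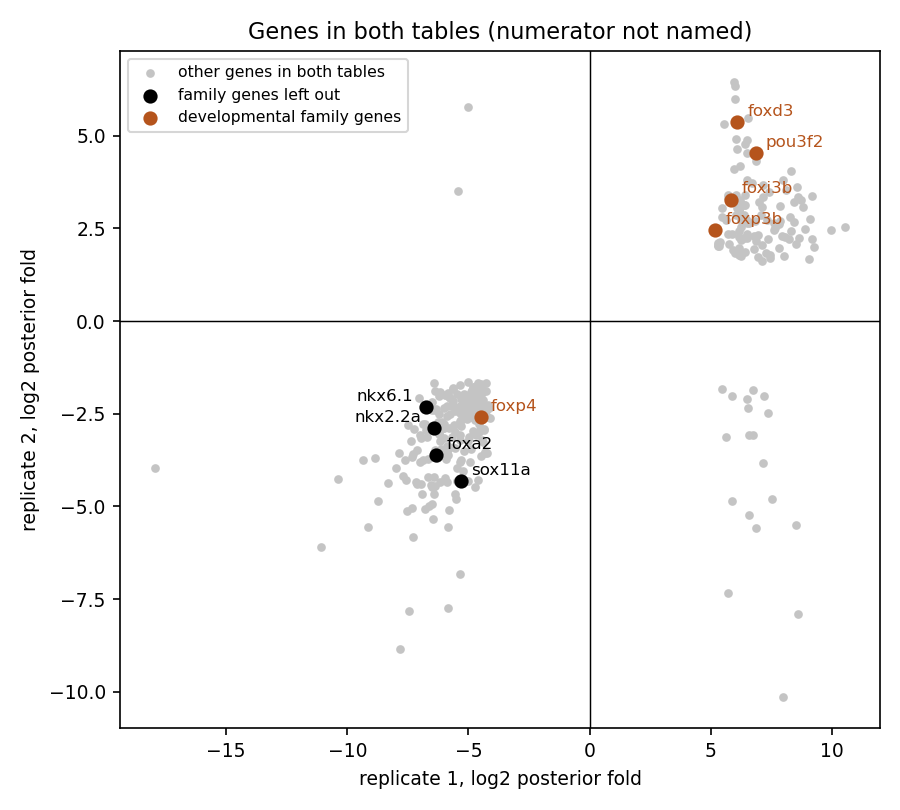
Log2 posterior fold in replicate 1 (x axis) against replicate 2 (y axis) for the 352 genes in both tables, with the 5 developmental family genes in orange and the 4 left-out family genes in black. The points of foxd3, pou3f2, foxi3b and foxp3b are above 0 on both axes, and foxp4 stands with nkx6.1, nkx2.2a, foxa2 and sox11a below 0 on both.

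A moderated test by limma, with the replicate as a block, used the log2 ratio of each pair for the 352 shared genes. It called none of the 5 at a Benjamini-Hochberg adjusted p of 0.05, where 4 of 352 genes passed (1.14%), all below 1. For foxd3 the mean log2 ratio was 5.72 (SE 2.19, n = 2 pairs, above 1 in both) with a limma adjusted p of 0.0678. For pou3f2 it was 5.69 with the same SE and the same limma adjusted p, and for foxi3b 4.55 with a limma adjusted p of 0.0816. The limma adjusted p of foxp3b was 0.112 at a mean of 3.81, and that of foxp4 was 0.128 at a mean of -3.55. At an unadjusted p of 0.05, limma called foxd3, pou3f2 and foxi3b, beside 56% of the 352 genes. In replicate 1 the fold columns of each of these 3 were over 10 times apart. limma gave every gene the same SE, and the genes were listed for large ratios in both tables, so these p-values order genes by mean ratio and carry that selection. The SE also takes in a gap in scale between the replicates. On the log2 scale, the listed ratios nearest to 1 were 5.14 and -4.13 in replicate 1, and 1.58 and -1.62 in replicate 2.

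The Fox genes were the most numerous family, with 10 listed in replicate 1 (9 above 1) and 4 in replicate 2 (3 above 1). Fox is also the largest of these families by name, with 63 named identifiers apart from the left-out genes. Of these, 15.9% were listed in replicate 1 and 6.35% in replicate 2, beside 13.4% and 3.25% over all 14 families. The shares of all listed genes above 1 were 66.6% and 42.9%. Left-out Fox genes lay below 1, foxa2 in both replicates and foxr1 in replicate 2. With foxd3, its paralogs foxd1 and foxd2 lay above 1 in replicate 1. In the authors' deposited table, foxd1, a gene of the retina and of kidney stroma in mice, was at 7.37 on the log2 scale, and foxd2 at 6.02. Forebrain gene foxg1a was at 7.22 in the authors' deposited table of replicate 1, and foxb1.1, of the diencephalon and hindbrain, at 5.94. The ciliary gene foxj1b was at 6.55 and the cell division gene foxm1 at 5.95 in the same deposited table of the authors. These 2 had nearly the same posterior and uncorrected fold, with a distance of 0.050 and 0.0027 on the log2 scale, so their ratios do not depend on the column read. The locus given for foxj1b spans 222658 bp, far longer than the 1688 to 2311 bp of the FoxB, FoxD, FoxG and FoxI loci, and the files do not show which transcripts within it were counted.

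The sine oculis genes encode homeodomain proteins of the eye, forebrain, kidney and muscle. All 4 that were listed lay above 1, all in replicate 1. That side held 66.6% of the whole table, so a count this small does not set the family apart. In the authors' deposited table the eye and forebrain genes six3a and six3b were at 6.34 and 6.72 on the log2 scale, six2b at 6.37 and six4b at 6.43. The uncorrected log2 folds were 13.52 for six2b and 13.59 for six4b, as deposited, so the sizes of these ratios depend on the fold column. For six3a and six3b they were 6.78 and 7.35, much nearer to the posterior values. Each of the 4 ratios rests on 1 pair of libraries, so their order has no error estimate. Of these genes, six3b and six2b are neighbours on chromosome 12, 6676 bp apart in the deposited coordinates. The locus of six3a spans 137838 bp, and that of six3b 2658 bp.

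The HoxA and HoxB members came from 4 clusters. All 11 listed lay above 1, beside 66.6% of all listed genes in replicate 1 and 42.9% in replicate 2. HoxC genes were outside the rule, and of these hoxc5a (6.01 and 5.33) and hoxc8a (6.23 and 2.72) were above 1 in both deposited tables of the authors. The fold columns of hoxc5a were over 10 times apart in replicate 1. From the HoxA clusters, hoxa4a (6.17) and hoxa9a (5.99) on chromosome 19 and hoxa2b (5.96), hoxa9b (5.89) and hoxa11b (5.57) on chromosome 16 were in the authors' deposited table of replicate 1. From the HoxB clusters, the same deposited table of the authors held hoxb3a (7.18) and hoxb10a (6.90) on chromosome 3 and hoxb5b (6.60) and hoxb8b (5.84) on chromosome 12. In the authors' deposited table of replicate 2 there were hoxa3a at 2.88 and hoxb4a at 5.15. None of the 11 was in both tables, beside 11.7% of all listed genes, so at this number 0 is near the share over all genes. In position, hoxa3a and hoxb4a lie beside members listed in replicate 1. The deposited locus of hoxa3a, hoxa4a and hoxa9a is 1 region of 153242 bp, and that of hoxb3a and hoxb4a is 1 region of 51374 bp. Since these genes share a locus, the files do not show where the reads of each lay. No HoxD gene and no Gata gene was in either table.

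Among the other homeodomain genes, dlx1a, a gene of forebrain interneurons, had the largest posterior ratio of the 38, at 480 or 8.91 on the log2 scale in the authors' deposited table of replicate 1. It ranked 56 of 1206 on its side, and its uncorrected log2 ratio was 16.08 in the authors' deposited table. The LIM-homeodomain genes lhx1a, of the kidney and axial mesoderm, and lhx2a were at 7.41 and 6.56 in that replicate's table as the authors deposited it. The heart gene nkx2.5 was at 6.93 and the Iroquois gene irx1b at 6.51 in the authors' deposited table as well. By contrast nkx1.2lb, of the NK1 group, was below 1 at -5.64 in the authors' deposited table of replicate 1. Also below 1 there were the left-out Nkx genes nkx6.1 and nkx2.2a, at -6.76 and -6.42 by the authors' values. Both were below 1 in replicate 2 as well, at -2.32 and -2.89 by the authors' values. Of the Nkx genes listed in replicate 1, nkx2.5 alone thus lay above 1.

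The Pax genes fell on both sides, each in 1 replicate alone. The authors' deposited table of replicate 1 gave pax7b, of muscle and neural crest progenitors, 6.75 on the log2 scale. Its close relative pax3a, which acts in the same progenitors, was at -2.24 in the authors' deposited table of replicate 2. Of the T-box genes, the heart and fin gene tbx5b was at 6.56 and tbx21 at 7.75 in the authors' deposited table of replicate 1, and tbx15, known from skeletal and skin mesenchyme in mice, at 2.34 in that of replicate 2. The 1 Sox gene that the rule kept was sox14, of interneurons, for which the authors' deposited table of replicate 1 gave 5.87. Left-out Sox genes lay below 1, with sox11a at -5.32 in replicate 1 and -4.33 in replicate 2 by the authors' values. In replicate 2 the authors' values also put sox9a at -2.58 and sox9b at -4.41.

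The size of a ratio depended on the fold column for most of these genes. The authors' tables give a posterior fold and an uncorrected fold, and for some genes these differ by over 10 times. No gene above 1 in replicate 1 lay between a factor of 9.48 and one of 142. Of the 32 members above 1 in replicate 1, 21 differed in this way (65.6%), beside 63.6% of all genes above 1 there. In replicate 2 there were 2 of 7, foxd3 and hoxb4a, beside 9.7% of all genes above 1. For foxd3 the uncorrected log2 ratio was 13.23 in replicate 1 and 11.72 in replicate 2 in the authors' deposited tables, against posterior values of 6.08 and 5.35.

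The distance between the columns was not spread evenly in replicate 1. The 21 members had distances of 7.15 to 7.17 on the log2 scale, and all 767 such genes above 1 in that table had distances of 7.15 to 7.17. The other genes above 1 there had distances from 0.0027 to 3.24. Another 5 members (foxd2, hoxa11b, lhx1a, pax7b and sox14) had distances of 1.05 to 1.06. Next came six3b at 0.62, six3a at 0.44 and foxp3b at 0.24, and then lhx2a, foxj1b and foxm1 at under 0.1. The 5 genes at 1.05 to 1.06 were at 5.57 to 7.41 on the posterior scale, and the 21 at 5.84 to 8.91, so the 2 sets overlap on that scale. The files hold no reads per library, so whether the 21 genes had any reads in the library where they were lower is not shown. If they had none, ratios such as 480 for dlx1a or 67.7 for foxd3 follow from the authors' correction and have no measured size. What sets these distances was not tested.

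The members above 1 stood near the middle of their side in replicate 1 and farther from 1 in replicate 2. Their median log2 ratio in replicate 1 was 6.47, beside 6.55 for all 1206 genes above 1, and 4 of the 32 were among the 301 genes farthest from 1. In replicate 2 the median of the 7 was 3.27, beside 2.61 for all 670, and 3 of the 7 (foxd3, hoxb4a and pou3f2) were among the 167 farthest. Of these 3, foxd3 and hoxb4a had fold columns over 10 times apart. All 65 such genes above 1 in replicate 2 lay at 4.17 or more on the log2 scale. Without that class, the median there was 2.88 for 5 members and 2.52 for all 605 genes above 1. The posterior probability of equal expression was under 0.001 for 10 of the 32 in replicate 1 (31.3%), beside 38.1% of all genes above 1. In replicate 2, 6 of 7 were under that value (85.7%), beside 67.3% of all genes above 1. The lowest value of the 38 genes was 1.04e-11, for pou3f2 in the authors' deposited table of replicate 2.

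**Figure D3:**
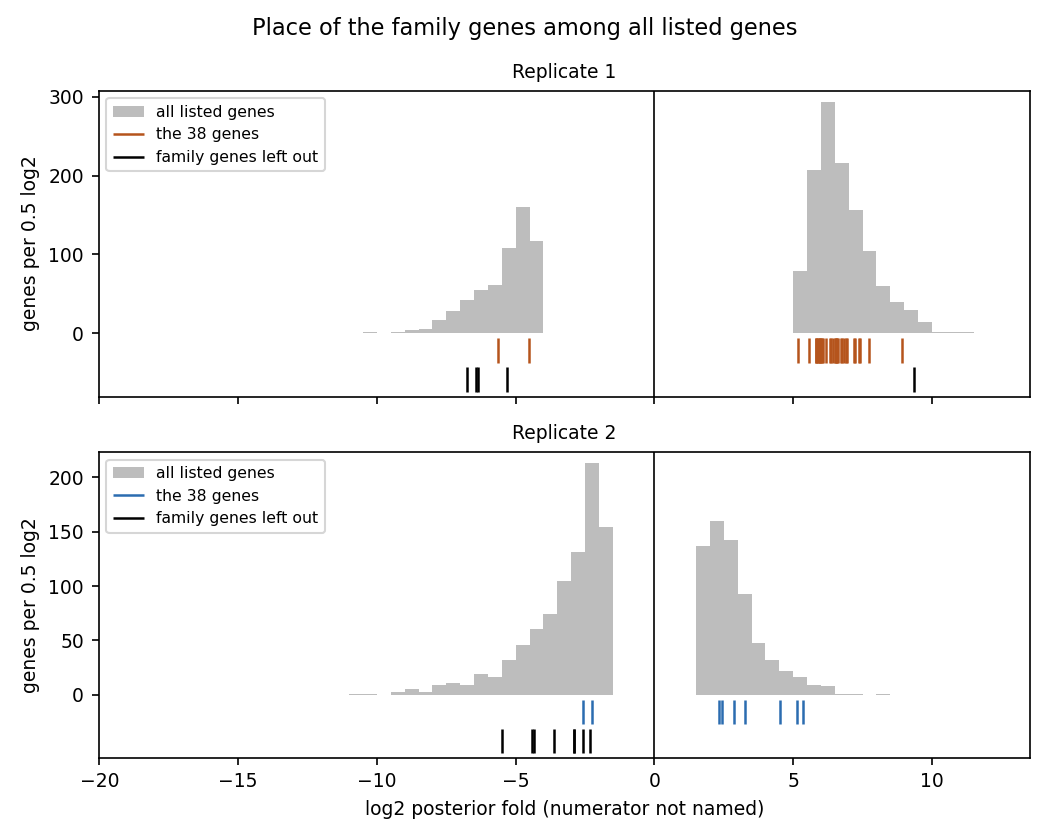
Histograms of the log2 posterior fold of all listed genes (grey, genes per 0.5 log2) in replicates 1 and 2, with ticks beneath for the 38 genes (coloured) and for the left-out family genes (black). The members of replicate 1 lie around the median of the upper side, 6.55, and the left-out genes of replicate 2 all lie below 0.

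The families were listed unequally in the 2 tables. A table of Ensembl gene names held 246 identifiers with a symbol of these families, apart from the left-out genes. Of these, 33 were listed in replicate 1 (13.4%) and 8 in replicate 2 (3.25%), beside 4.36% and 3.52% of all 29201 identifiers. In replicate 1 the sine oculis family had 4 of 13 listed, HoxA 3 of 11, HoxB 4 of 15 and Lhx 3 of 11, against 1 of 26 for Sox and 0 of 11 for Gata. These counts are by symbol in the name table. It gives no symbol for hoxa3a, hoxa4a, hoxa9a and nkx1.2lb, and adds 1 Lhx and 1 T-box gene. The counts thus differ from the 5 HoxA and 2 Lhx members of replicate 1 named above, and from the 9 members of replicate 2. With the left-out genes put back, the shares were 14.9% of 255 identifiers in replicate 1 and 6.27% in replicate 2. These are shares of the named identifiers and not of genes tested, since the number tested is not in the files. Under clone names, another 2 listed genes, BX927282.2 (tbx3b) and si:ch211-236k19.2 (LHX6), belong to the families by this table, and both lay above 1 in replicate 1, at 5.36 and 7.30 in the authors' deposited table. For the LHX6 gene the uncorrected log2 fold was 14.47, as deposited.

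In a fixed list of patterning factors of other families, most of those listed lay on the same side in replicate 1. Of 70 homeodomain and patterning genes outside these prefixes, 9 were listed in replicate 1, 8 of them above 1, and 4 in replicate 2, 2 of them above 1. The shares of all listed genes above 1 were 66.6% and 42.9%, and 4.36% and 3.52% of all named identifiers were listed. Patterning factors of the list above 1 in replicate 1 included the midbrain and hindbrain gene eng2b at 8.44, lmx1a at 7.72, pitx3 at 7.21 and the eye gene rx1 at 6.84 in the authors' deposited table. The only 1 of this list in both was hlxb9la (mnx2a in the name table), below 1 at -6.78 and -5.07 in the authors' deposited tables. Exact symbols miss some factors. Outside the list, meis1 (-6.36 and -2.41), prox1 (-6.14 and -2.82) and sall1a (-6.95 and -3.16) were below 1 in both deposited tables of the authors. The HoxC genes hoxc5a and hoxc8a were above 1 in both. Of 21 pancreas and left-out factors, 8 of 10 listed lay below 1 in replicate 1 and 11 of 12 in replicate 2. Exceptions above 1 were lhx8a and rfx6 in replicate 1 and the acinar gene ptf1a in replicate 2, which had 2.74 in the authors' deposited table. Below 1 lay 33.4% of all listed genes in replicate 1 and 57.1% in replicate 2.

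Markers of neurons were listed on the side of most members. Of 25 neuronal and glial genes, 4 of 4 listed lay above 1 in replicate 1 (isl2a, plp1b, elavl3 and neurog1) and 1 of 1 in replicate 2, elavl3, for which the authors' deposited tables gave 5.91 and 1.90. Among all named identifiers, 4.36% were listed in replicate 1 and 3.52% in replicate 2. Of all listed genes, 66.6% lay above 1 in replicate 1 and 42.9% in replicate 2, so counts this small do not set neuronal genes apart. Of a list of 20 other neural crest and pigment genes, 0 were listed in replicate 1, and in replicate 2 zic2a lay above 1 and twist1a, ltk and pnp4a below. The crest genes crestin, tfap2a, snai2 and mitfa were in neither table. Of 17 muscle, heart and mesoderm genes, hand2 alone was listed, above 1 at 4.16 in the authors' deposited table of replicate 2, where nkx2.5 and tbx5b were not listed.

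Beside tbx21 and foxp3b, 6 of 7 listed genes of 23 in the blood, lymphoid and endothelial list lay above 1 in replicate 1 and 4 of 4 in replicate 2. The share above 1 among all listed genes was 66.6% in replicate 1 and 42.9% in replicate 2. The exception in replicate 1 was the endothelial gene cdh5, which the authors' values put below 1, at -4.71 on the log2 scale. The 7 of 23 listed in replicate 1 stand beside 4.36% of all named identifiers and the 33 of 246 of the families themselves. This list was drawn up with earlier results of these data known, so its share carries that choice. Lymphocyte genes outside the list fell on both sides in the authors' deposited tables. Below 1 in both were btk (-5.97 and -2.00) and blnk (-5.62 and -1.84). Above 1 in both were rhoh (6.51 and 3.80) and tagap (5.44 and 3.06). The lymphocyte gene rag1 of the list was in both, with values of 6.18 and 1.85 in the authors' deposited tables. Its companions lck and cd4 were in replicate 1 alone. In replicate 1 the fold columns of rag1 and rhoh were over 10 times apart, so the sizes of these ratios depend on the column read. The pan-leukocyte gene ptprc was at 2.08 in the authors' deposited table of replicate 2. Of 12 islet genes only ins was listed, above 1 in replicate 2, and of 14 liver, gut and kidney genes 2 were, both in replicate 2, 1 on each side. Oocyte genes lay above 1 in replicate 1 (2 of 2, zp2.2 and zp2.5) and below 1 in replicate 2 (7 of 7), both shared genes among them, unlike the 5 shared family genes. The tables hold no level of any marker in a library, and the part of these cells in the ratios of the 38 genes was not tested.

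**Figure D4:**
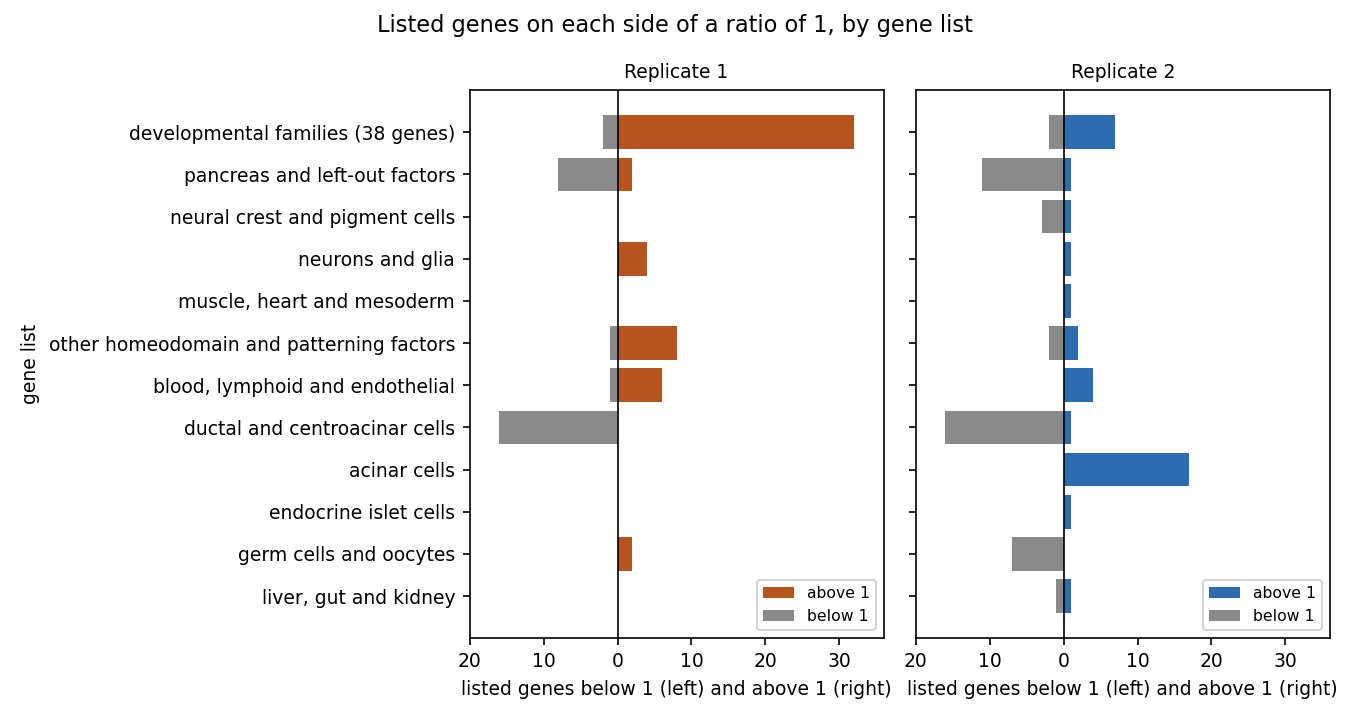
Number of listed genes above 1 (coloured bars, to the right) and below 1 (grey bars, to the left) for the 38 genes and for 11 other gene lists (rows), in replicate 1 and replicate 2. The 38 genes have 32 above and 2 below in replicate 1 and 7 above and 2 below in replicate 2. Most listed genes of the ductal list and of the list of pancreas and left-out factors lie below 1. The latter list holds the family genes that the rule left out. All 17 listed acinar genes lie above 1 in replicate 2. With those put back, 7 of 17 family genes lie above 1 in replicate 2 (41.2%), beside 42.9% of all listed genes.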

How the data were processed

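RNA libraries of sorted CAC and non-CAC were made with a TruSeq kit, per the labels' protocols. The authors deposited, for each replicate, a table of genes whose posterior probability of difference, a fraction, was at least 0.99, with 2 linear fold columns (ratio of the libraries). RSEM, Zv9 and danRer7 are named without role or version, per the submitters' processing notes, and the sources used here do not give the model behind the probabilities. Loci are printed as deposited, with Zv9 taken as their assembly. Depth per library is unknown, so no counting interval could be given.

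By their descriptions, the CAC and non-CAC library of a replicate belong to 1 table, which pairs them. Genes were described by side, at least 2-fold from 1, on the log2 scale of the posterior fold. The fixed plan foresaw a count test if counts were found, and otherwise this description. With 1 library per group in each table, no p-value was computed within a table. limma 3.58.1 (R 4.3.3) was run on the ratios of the 352 shared genes and was tested on simulated data.

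The 38 members, the 11 gene lists and the rule for named genes (every member in both tables, and up to 4 per family and table farthest from 1 with values, the rest by name or value) were chosen with earlier results of these data known. List genes were matched by exact symbol from the file or through the name table, which held 2048 of the 3020 identifiers. Alternatives were the uncorrected fold, a 4-fold minimum, a posterior probability of equal expression under 0.001, centring on each table's median, removal of genes whose fold columns differ by over 10 times, names from the name table, and each replicate alone. No nucleotide or protein sequence was used here.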

Additional observations from a re-analysis of the deposited data

How the results depend on the processing

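The counts by side (2 members below 1 and 32 above in replicate 1, 2 and 7 in replicate 2, 1 and 4 in both) held within 1.5 times with the uncorrected fold, a 4-fold minimum and names from the name table. For every listed gene the uncorrected fold lay farther from 1 on the same side, so that alternative could move no count. The listed ratios nearest to 1 in replicate 1 were 35.3 and 0.0571, so a 4-fold minimum could remove no gene there. Requiring a posterior probability of equal expression under 0.001 gave 1 below and 10 above in replicate 1, 1 below in replicate 2, and 0 and 0 in both. Centring each table on its median (log2 6.02 in replicate 1 and -1.90 in replicate 2) left 6 above in replicate 1, 0 below in replicate 2, and 0 and 0 in both. Without genes whose fold columns differ by over 10 times, 11 lay above 1 in replicate 1, and 1, foxp3b, above 1 in both. Leaving out 1 replicate turns the count in both into that of the other table, which is 2 below without either replicate, and 7 (without replicate 1) to 32 (without replicate 2) above. With the replicate as a block, which pairs the libraries, limma called 0 below and 0 above at an adjusted p of 0.05. Chosen after seeing the data, putting the 9 left-out genes back gave 6 below 1 in replicate 1, 10 in replicate 2 and 5 in both, and leaving out genes with a shared locus moved no count by over 1.5 times. The changes follow from how each alternative is built, by fewer genes kept, a shifted zero or genes added. Depth per library is unknown, so which unlisted genes were too low to call cannot be said.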
